A study of Mus musculus with 15 samples.

Results

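The integrated stress response and the unfolded protein response were followed through 9 genes, Atf4, Atf5, Ddit3, Hspa5, Xbp1, Trib3, Asns, Chac1 and Sesn2, taken by name from the 55421 Ensembl genes counted in every library. The libraries came from posterior eyecups without the neural retina, a preparation of retinal pigment epithelium, choroid and sclera, from 15 mice at 2.5 months of age. There were 4 WT, 6 FUN025/+ and 5 FUN025/FUN025 libraries, each from a different mouse. FUN025 is a germline mutation of Tmem135, a transmembrane protein of mitochondria and peroxisomes, so every cell of a FUN025/+ mouse carried 1 mutant allele and every cell of a FUN025/FUN025 mouse carried 2. All 3 groups were on the C57BL/6J background and included both sexes. The eyecups of each mouse were pooled, and the labels name no treatment and do not say whether the WT mice were littermates of the mutants. Total counts were 18094977 to 20029919 in WT, 10903183 to 13456349 in FUN025/+ and 11053535 to 15038383 in FUN025/FUN025, so every WT library was deeper than every mutant library. A count of 3 corresponded to 0.1498 to 0.275 CPM (counts per 1000000 counts of a library), which allows for counting error alone. Among 12 markers of the retinal pigment epithelium none was absent, and Rpe65 stood at 1486 to 2616 CPM over the 15 libraries.

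Both responses begin with a sensor of trouble and end in a shared change of gene expression. In the integrated stress response, kinases that sense amino acid shortage, haem shortage, double-stranded RNA or unfolded protein phosphorylate the initiation factor eIF2alpha. General translation then slows, while the mRNA of Atf4, which carries upstream reading frames, is translated more. ATF4, with its relatives ATF5 and CHOP (the product of Ddit3), activates genes for amino acid supply, redox balance and feedback, among them Trib3, Asns, Chac1 and Sesn2. In the unfolded protein response, the endoplasmic reticulum (ER) sensors IRE1, ATF6 and PERK are released from the chaperone BiP, the product of Hspa5. IRE1 then splices the Xbp1 mRNA, and XBP1 and ATF6 induce chaperones, Hspa5 itself among them. Mitochondrial damage also feeds into this system, through the protease OMA1 and its substrate DELE1, and the pigment epithelium is a tissue with a heavy load of protein folding and mitochondrial work. Gene counts measure the amount of mRNA alone. They show neither the translation of Atf4 and Atf5 nor the splicing of Xbp1, and in a bulk tissue fewer cells of a type and less mRNA per cell cannot be told apart.

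The promoters of 4 of the 9 genes held one of the known response elements of these pathways, within a window from 250 bases before to 50 bases after a RefSeq start site on GRCm38.p6. All 9 genes were matched, at 10 start sites, and both strands were searched. The ER stress response element, searched as CCAAT and CCACG with 9 bases of any kind between them, was present in 39 of 32851 windows of 300 bases, or 0.119%. The element bound by C/EBP-ATF dimers was written as TGATGNAA and was present in 1304 windows, or 3.97%. The core of a further XBP1 element, TGACGTGG, was present in 222 windows, or 0.676%, and in none of the 9 genes. No match overlapped with another in these windows. Each stretch is given 5′ to 3′ on the strand of its gene, with the matching bases in capitals.
Hspa5, chr2:34771840-34772089, plus strand, with the ER stress response element from 65 to 47 bases before the start: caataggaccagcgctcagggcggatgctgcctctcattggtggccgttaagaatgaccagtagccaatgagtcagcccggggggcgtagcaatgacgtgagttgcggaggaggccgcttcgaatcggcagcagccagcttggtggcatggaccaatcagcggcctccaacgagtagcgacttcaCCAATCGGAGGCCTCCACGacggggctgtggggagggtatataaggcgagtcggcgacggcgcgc
Asns, chr6:7693210-7693309, minus strand, with the C/EBP-ATF element from 23 to 16 bases before the start: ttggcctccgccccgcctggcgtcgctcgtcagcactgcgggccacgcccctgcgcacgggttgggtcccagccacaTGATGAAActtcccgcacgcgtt
Chac1, chr2:119351007-119351106, plus strand, with the C/EBP-ATF element on the opposite strand from 193 to 186 bases before the start: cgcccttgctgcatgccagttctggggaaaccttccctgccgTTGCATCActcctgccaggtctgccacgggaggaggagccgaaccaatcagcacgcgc
Trib3, chr2:152344028-152344057, minus strand, with the C/EBP-ATF element on the opposite strand from position 15 to 22 after the start: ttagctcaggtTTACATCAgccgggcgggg
Atf4, Atf5, Ddit3, Xbp1 and Sesn2 held none of these letters in their windows, which says nothing of elements elsewhere or of other spellings. A match is a description of the sequence and was not tested for binding.

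Hspa5 was the most abundant of the 9 mRNAs. Per exon length, it reached 364 ± 31.2 TPM in WT (SD, n = 4), where TPM are counts scaled for exon length and then to the same total in every library, followed by Atf4 at 176 ± 8.89, Atf5 at 164 ± 16.4, Xbp1 at 114 ± 9.28 and Ddit3 at 51.2 ± 6.06. The other 4 genes were lower, with Sesn2 at 11.0 ± 0.539 TPM, Chac1 at 10.3 ± 3.66, Trib3 at 7.53 ± 1.25 and Asns at 3.73 ± 1.28. In all 3 genotypes the ranges of Hspa5 and of Ddit3 lay apart from those of the neighbouring genes in this order. The TPM ranges of Atf4 and Atf5 overlapped in every genotype, as did those of Sesn2 and Chac1 and of Chac1 and Trib3. The 4 lowest genes were also read from few counts, 17 to 151 per library for Chac1 and 26 to 85 for Asns.

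Markers of tissue next to the eyecup were summed in each library. Over 14 striated muscle genes, the level was 5214 to 9333 CPM in WT, 2830 to 7111 in FUN025/+ and 4281 to 5333 in FUN025/FUN025. By the test described next, 3 of the 14 (21.4%) were called lower in each mutant genotype. Of all genes, 6.61% (FUN025/+) and 7.02% (FUN025/FUN025) were called lower. All 14 had log2 fold changes below 0 in both, with medians of −0.63 and −0.52. Over 17 photoreceptor genes the summed level was 409 to 2649 CPM, 233 to 853 and 241 to 577, with WT 2 the highest and the ranges overlapping. Of the 17, 0 and 2 (11.8%) were called lower. However, 16 and 15 had log2 fold changes below 0, with medians of −1.68 and −1.66. No gene of either list was limited to 3 counts or fewer in all libraries. Over 8 genes of choroid endothelium the summed level was 1169 to 1333, 924 to 1245 and 851 to 1047 CPM, so FUN025/FUN025 lay below WT. Of the 8, 2 (25.0%) were called lower in FUN025/+ and 6 (75.0%) in FUN025/FUN025, and 7 and 8 had values below 0. In contrast, 12 genes of the pigment epithelium summed to 21889 to 27419 CPM with all 3 genotypes overlapping. Over 10 macrophage genes the level was 808 to 1142 CPM in WT, 745 to 1105 in FUN025/+ and 889 to 1002 in FUN025/FUN025, and 2 of the 10 were called higher in FUN025/FUN025. Lens markers summed to 119 CPM in FUN025/+ 1 and to 225 and 140.1 in FUN025/FUN025 3 and 4, against at most 47.4 in WT.

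The question of the first comparisons was whether these genes differed from WT when 1 or both alleles were mutant. After filtering, 18979 genes were tested together, and a gene is called here when its Benjamini-Hochberg adjusted p in edgeR's quasi-likelihood test was under 0.05. All 9 genes were tested, and all 9 had a log2 fold change below 0 in both mutant genotypes, where 9584 and 9764 of the 18979 genes lay below 0. All 14 muscle markers did so too, as did all 8 endothelial markers in FUN025/FUN025. Over the 9 genes the median was −0.26 (FUN025/+) and −0.29 (FUN025/FUN025) on the log2 scale, against −0.0023 and −0.0071 over all genes tested. In FUN025/+, 3 of 9 were called, all lower (Atf4, Ddit3 and Hspa5), where 13.7% of all genes were called and 6.61% were called lower. In FUN025/FUN025, 3 of 9 were called, all lower (Atf4, Atf5 and Hspa5), where 14.0% of all genes were called and 7.02% were called lower. None of the 9 was called higher in either comparison, where 7.09% and 7.03% of all genes were. The same 4 WT libraries served both comparisons, so the directions in the mutants are not independent of each other.

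**Figure D1:**
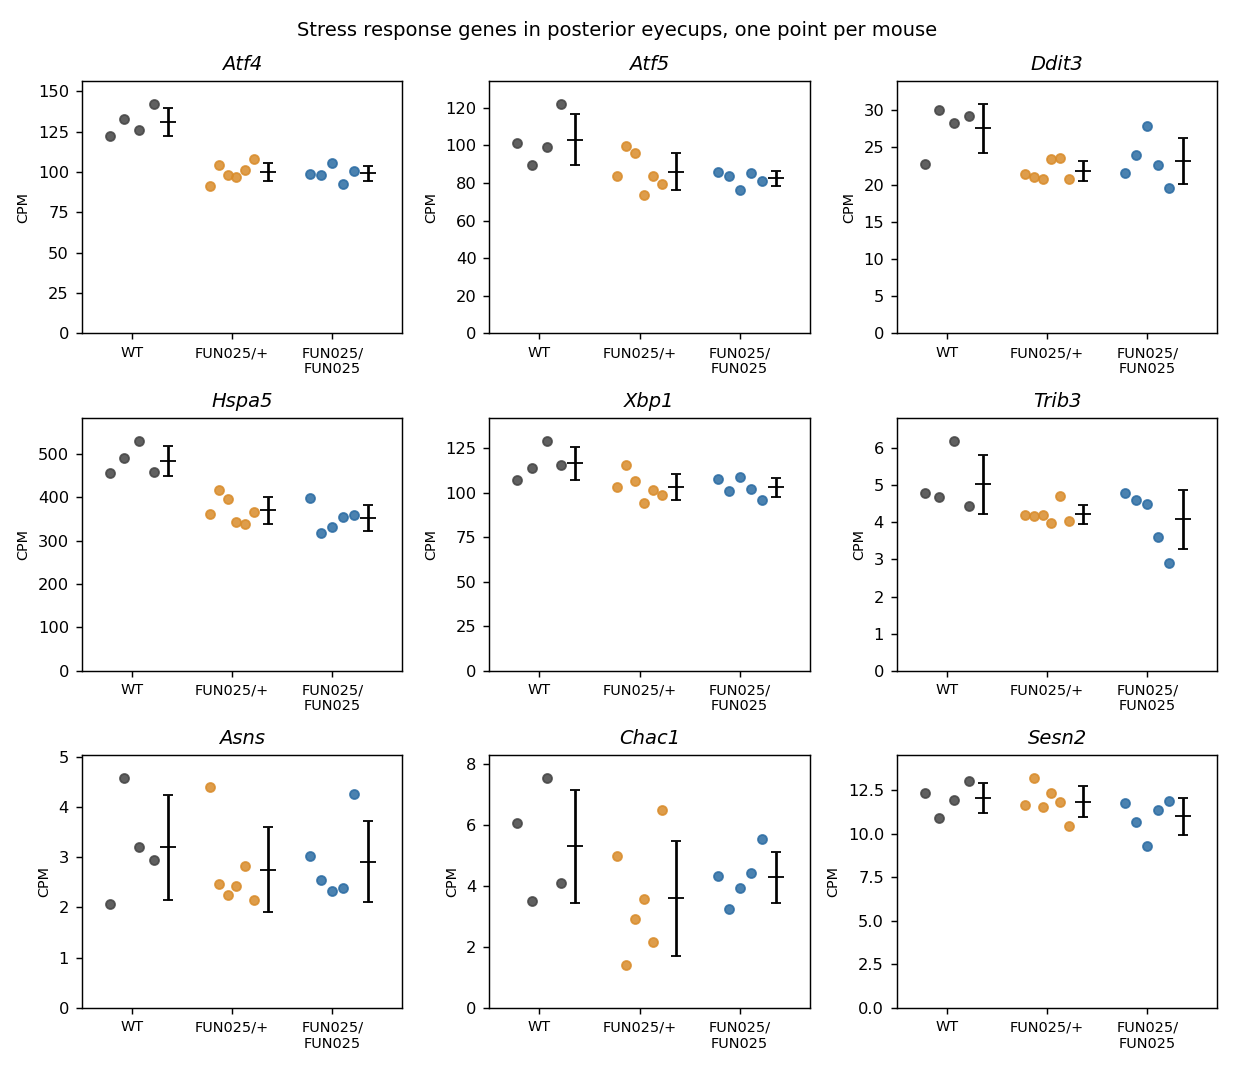
Level of each of the 9 genes in CPM (vertical axis, from 0) in every library, with 1 point per mouse and the mean ± SD of each genotype as a bar to the right of its points. The points of Atf4 and Hspa5 in both mutant genotypes lie below all 4 WT points, whereas those of Asns, Chac1 and Sesn2 overlap.

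Atf4 encodes the transcription factor at the centre of the integrated stress response. The gene lies on chromosome 15 at 80255184 to 80257541 (GRCm38, plus strand). Its level was 122, 133, 126 and 142 CPM in WT 1 to 4, it ranged from 91.3 through a median of 99.7 to 108 CPM over the 6 FUN025/+ libraries, and it was 99.0, 98.1, 106, 92.8 and 100.4 CPM in FUN025/FUN025 1 to 5. All 11 mutant libraries lay below all 4 WT libraries, and the mutant genotypes overlapped with each other. The mRNA fell by 0.39 on the log2 scale in FUN025/+ (SE 0.053, edgeR adjusted p = 1.07e-04) and by 0.40 in FUN025/FUN025 (SE 0.056, edgeR adjusted p = 1.01e-04), or by 23.6% and 24.2%. A further fit took the mean log2 CPM of the muscle markers and of the photoreceptor markers as covariates, not the summed levels above. There Atf4 had −0.31 and −0.34 and was no longer called (edgeR adjusted p = 0.159 and 0.0634). These means are the muscle and photoreceptor covariates of all fits below. Of the 9 genes, 2 in FUN025/+ and 3 in FUN025/FUN025 had every library below every WT library, where 5.18% and 7.50% of all genes did, and 10.9% and 14.8% lay apart from WT in either direction.

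Atf5 encodes a close relative of ATF4 that is also translated under stress and is linked to the mitochondrial unfolded protein response. The gene lies on chromosome 7 at 44812256 to 44816658 on the minus strand, across parts of Nup62 and Il4i1 on the opposite strand. Reads from stretches that these genes share cannot be told apart if the counting ignored strand. Of the 31-base stretches of Atf5 transcripts, 2.76% were shared with other genes on either strand. Its level was 101.03, 89.4, 99.2 and 122 CPM in the WT libraries, 73.7 to 99.8 with a median of 83.6 in FUN025/+, and 85.8, 83.4, 76.4, 85.1 and 80.9 in FUN025/FUN025. Every FUN025/FUN025 library lay below every WT library, while FUN025/+ 2 and FUN025/+ 3 lay within the WT range. Atf5 fell by 0.32 on the log2 scale in FUN025/FUN025 (SE 0.088, edgeR adjusted p = 0.0223), and its log2 fold change in FUN025/+ was −0.26 (SE 0.084, edgeR adjusted p = 0.0509). The value in FUN025/+ lay close to the threshold. It passed with DESeq2's Wald test (adjusted p = 0.0357), total counts, the stricter count filter or Xist as a covariate, and without WT 2, FUN025/+ 2 or FUN025/+ 3, and it was −0.17 without WT 4 (edgeR adjusted p = 0.212). The call in FUN025/FUN025 rested in part on WT 4, without which the log2 fold change was −0.23 (edgeR adjusted p = 0.0900), and on FUN025/FUN025 3 (−0.30, adjusted p = 0.0525). It was also lost with an offset for GC content and length, where the value was −0.21 (edgeR adjusted p = 0.0890), and with a block for the replicate number.

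Ddit3 encodes CHOP, a transcription factor that is induced late in ER stress and is known for its part in cell death. The gene lies on chromosome 10 at 127290774 to 127296288 on the plus strand and overlaps with Gm4189 and Mars on the minus strand. Reads from stretches shared with them cannot be told apart if the counting ignored strand. Of the 31-base stretches of Ddit3 transcripts, 6.78% were shared with other genes, 4.38% with a further Ddit3 model in the same place. That model had 0 counts in all libraries. Ddit3 stood at 22.8, 30.0, 28.3 and 29.2 CPM in WT, at 20.7 to 23.6 with a median of 21.3 in FUN025/+, and at 21.6, 24.0, 27.9, 22.6 and 19.6 in FUN025/FUN025. WT 1 was low and lay within the range of both mutant genotypes. Ddit3 fell by 0.34 on the log2 scale in FUN025/+ (SE 0.091, edgeR adjusted p = 0.0205), and its log2 fold change in FUN025/FUN025 was −0.25 (SE 0.095, edgeR adjusted p = 0.0839). Without WT 2, WT 3 or WT 4 the value in FUN025/+ was −0.29, −0.32 or −0.31 and the call was lost (edgeR adjusted p = 0.0731, 0.0527 and 0.0724). A block for the replicate number also ended this call. Without WT 1, FUN025/FUN025 passed as well, at −0.33 (adjusted p = 0.0211), as it did without FUN025/FUN025 3 (−0.33, edgeR adjusted p = 0.0253). With the muscle and photoreceptor covariates, the values turned to 0.041 and 0.076 and were not called (edgeR adjusted p = 0.945 and 0.857).

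Hspa5 encodes BiP, the main Hsp70 chaperone of the ER, whose mRNA is the usual readout of the unfolded protein response. The gene lies on chromosome 2 at 34771970 to 34777547 on the plus strand, and its promoter holds the ER stress response element printed above. Hspa5 reached 456, 489.9, 529.9 and 459 CPM in WT, 338 to 417 with a median of 363 in FUN025/+, and 397, 318, 333, 354 and 359.8 in FUN025/FUN025. No mutant library came up to the lowest WT library. The mRNA fell by 0.39 on the log2 scale in FUN025/+ (SE 0.070, edgeR adjusted p = 0.00131) and by 0.46 in FUN025/FUN025 (SE 0.073, edgeR adjusted p = 3.83e-04), or by 23.5% and 27.2%. Over all 29 other settings and left-out libraries, Hspa5 stayed called in both comparisons. Among these, the setting without the variance filter repeats the main fit. With the muscle and photoreceptor covariates the values of Hspa5 moved to −0.77 and −0.79.

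Xbp1 encodes the transcription factor made from the mRNA that IRE1 splices. The gene lies on chromosome 11 at 5520659 to 5525893 on the plus strand, and spliced and unspliced forms were counted together. Its levels were 107, 114, 129 and 116 CPM in WT, 94.4 to 116 with a median of 102 in FUN025/+, and 108, 100.8, 109, 102 and 95.7 in FUN025/FUN025. FUN025/+ 2 lay within the WT range, as did FUN025/FUN025 1 and 3. The log2 fold changes were −0.17 (95% CI −0.30 to −0.047) and −0.18 (−0.31 to −0.046), and neither was called (edgeR adjusted p = 0.0614 and 0.0659). Both passed without WT 1, at −0.21 and −0.22 (edgeR adjusted p = 0.0312 and 0.0345), and were nearest to 0 without WT 3, at −0.12 and −0.11 (edgeR adjusted p = 0.228 and 0.255). Without FUN025/+ 2 the values were −0.21 and −0.18 (edgeR adjusted p = 0.0263 and 0.0495).

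Trib3, Asns, Chac1 and Sesn2 are targets through which ATF4 acts, and none of them was called. Trib3 encodes a pseudokinase that feeds back on ATF4 and CHOP (chromosome 2, 152337422 to 152344032, minus strand). Trib3 was 4.78, 4.68, 6.20 and 4.45 CPM in WT, 3.998 to 4.70 with a median of 4.18 in FUN025/+, and 4.79, 4.62, 4.498, 3.62 and 2.90 in FUN025/FUN025. Of the FUN025/+ libraries 5 of 6 lay below every WT library, and FUN025/FUN025 4 and 5 did so too. Its log2 fold changes were −0.26 (95% CI −0.56 to 0.045) and −0.29 (−0.61 to 0.020), with edgeR adjusted p = 0.250 and 0.204. Without WT 3, the highest WT library, they were −0.13 and −0.17.

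Asns encodes asparagine synthetase, a classic target of ATF4 in amino acid shortage (chromosome 6, 7675169 to 7693254, minus strand). Its level was 2.06, 4.57, 3.20 and 2.95 CPM in WT, 2.14 to 4.41 with a median of 2.45 in FUN025/+, and 3.02, 2.54, 2.33, 2.38 and 4.26 in FUN025/FUN025. Each genotype had 1 library above 4 CPM, and all 3 ranges overlapped. The log2 fold changes of −0.21 (95% CI −0.72 to 0.29) and −0.14 (−0.67 to 0.38) were not called (edgeR adjusted p = 0.596 and 0.752). Without WT 2, the highest WT library, these turned to 0.019 and 0.091.

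Chac1 encodes an enzyme that degrades glutathione and responds to ATF4 and CHOP (chromosome 2, 119351229 to 119354381, plus strand). Its level was 6.06, 3.50, 7.54 and 4.11 CPM in WT, 1.39 to 6.51 with a median of 3.24 in FUN025/+, and 4.33, 3.23, 3.94, 4.44 and 5.53 in FUN025/FUN025. The SD came to 34.9% of the mean in WT, 52.6% in FUN025/+ and 19.5% in FUN025/FUN025, the widest of the 9 genes in WT and FUN025/+, whereas Asns at 27.7% and Trib3 at 19.6% were wider in FUN025/FUN025. The log2 fold changes were −0.56 (95% CI −1.25 to 0.14) and −0.31 (−1.03 to 0.41), with edgeR adjusted p = 0.279 and 0.589. Without WT 3, the highest WT library, they were −0.33 and −0.079.

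Sesn2 encodes sestrin 2, a leucine sensor that restrains the growth kinase mTORC1 (chromosome 4, 132492032 to 132510501, minus strand, overlapping Gm12981 on the same strand). Its level was 12.4, 10.9, 11.9 and 13.01 CPM in WT, 10.47 to 13.2 with a median of 11.8 in FUN025/+, and 11.8, 10.7, 9.32, 11.3 and 11.9 in FUN025/FUN025. All 3 ranges overlapped. The 95% CI of its log2 fold change was −0.21 to 0.16 (FUN025/+) and −0.33 to 0.063 (FUN025/FUN025), and neither was called (edgeR adjusted p = 0.881 and 0.374).

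**Figure D2:**
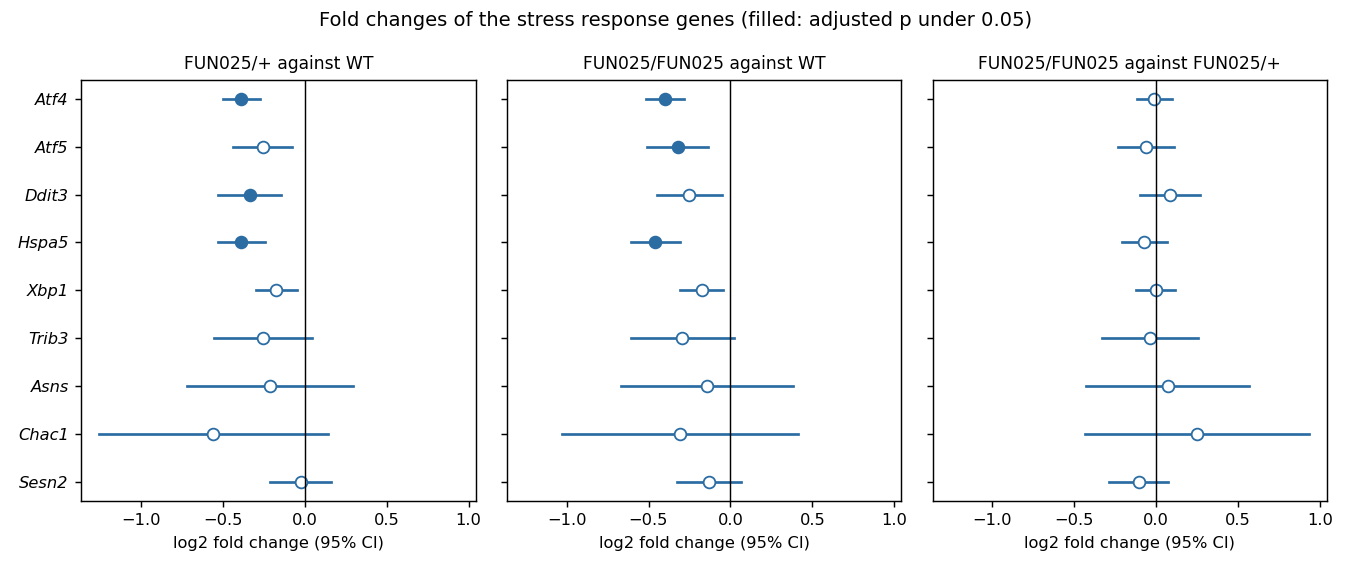
Log2 fold change of each gene (point) with its 95% confidence interval (line) in the 3 comparisons between genotypes, where filled points were called. All points lie left of 0 in both comparisons with WT, and in the comparison of the mutant genotypes every interval includes 0.

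The mutant genotypes were then compared with each other, to ask whether the second mutant allele added to the difference. None of the 9 genes was called by edgeR's quasi-likelihood test in FUN025/FUN025 against FUN025/+, where 0.522% of all genes were called, 0.327% higher and 0.195% lower, and none had an unadjusted p under 0.05 or was called by DESeq2 or limma-voom. None had groups that did not overlap, where 1.12% of all genes did, 0.495% with FUN025/FUN025 lower. The difference was −0.011 for Atf4 (95% CI −0.12 to 0.10), −0.071 for Hspa5 (−0.21 to 0.068) and −0.063 for Atf5 (−0.23 to 0.11) on the log2 scale. It was 0.084 for Ddit3 (95% CI −0.10 to 0.27) and 0.25 for Chac1 (−0.44 to 0.93). For Atf4 and Hspa5 both fold changes against WT lay outside this interval, and for Chac1 that of FUN025/FUN025 lay within it and that of FUN025/+ outside. For Atf5 and Ddit3, each called against WT in 1 mutant genotype, the difference between the mutant genotypes was not called. Tmem135, which was counted over the whole gene and so does not check the mutation, stood at 64.0 ± 2.99 CPM in WT, 75.0 ± 7.30 in FUN025/+ and 88.3 ± 4.57 in FUN025/FUN025.

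Upstream of the 9 genes, the sensors were measured together with the subunits that remove the phosphate from eIF2alpha. Of 7 genes, Ppp1r15a (GADD34, the stress-induced phosphatase subunit and itself a target of ATF4 and CHOP) was called in FUN025/+, and Ppp1r15a and Eif2ak2 (PKR, the sensor of double-stranded RNA) in FUN025/FUN025. These were 14.3% and 28.6% of the list, beside 13.7% and 14.0% of all genes. Ppp1r15a was 36.5 ± 2.71 CPM in WT, 23.2 ± 2.48 in FUN025/+ and 25.3 ± 1.41 in FUN025/FUN025, and no mutant library reached the lowest WT library. It fell by 0.65 on the log2 scale in FUN025/+ (SE 0.076, edgeR adjusted p = 1.89e-05) and by 0.53 in FUN025/FUN025 (SE 0.079, edgeR adjusted p = 2.08e-04). Eif2ak2 stood at 34.4 ± 4.20, 40.2 ± 3.20 and 43.6 ± 3.53 CPM, and rose by 0.34 in FUN025/FUN025 (edgeR adjusted p = 0.0106). The haem-regulated kinase Eif2ak1 had log2 fold changes of −0.12 and −0.16, the ER kinase Eif2ak3 (PERK) −0.035 and −0.13, and the amino acid sensor Eif2ak4 (GCN2) 0.11 and −0.017, none of them called. Of the ER sensors, Ern1 (IRE1) was not called at 0.14 and 0.066. Atf6 rose by 0.22 in FUN025/+ (edgeR adjusted p = 0.0363) and had 0.16 in FUN025/FUN025 (edgeR adjusted p = 0.138). Without WT 4 these became 0.14 (edgeR adjusted p = 0.133) and 0.082, and the call in FUN025/+ was also lost without WT 3 or without any 1 of FUN025/+ 1, 2, 3 and 4. Creb3l1, a relative of ATF6 active in collagen-secreting cells, was 17.7 ± 3.13 CPM in WT and 10.7 ± 1.42 in FUN025/FUN025, and fell by 0.71 on the log2 scale there (edgeR adjusted p = 0.00327). Over 7 scleral fibroblast genes, collagens among them, the summed level was 5392 to 7809 CPM in WT, 5572 to 6518 in FUN025/+ and 4689 to 6738 in FUN025/FUN025, where 6 of the 7 had values below 0 with a median of −0.19 and none was called, and the part of scleral tissue in the value of Creb3l1 was not tested. Of the 6 sensors of the unfolded protein response tested, 1 was called in each comparison, or 16.7%.

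Among the other transcription factors and secreted factors of the response, 10 of 11 were tested, and Fgf21 did not pass the filters. Cebpb and Nupr1 fell in both genotypes, and none rose. They were 20% of those tested, beside 6.61% and 7.02% of all genes called lower. Cebpb, a partner of ATF4 at the C/EBP-ATF element, was 24.0 ± 4.89 CPM in WT, 15.6 ± 3.59 in FUN025/+ and 14.9 ± 2.88 in FUN025/FUN025, with log2 fold changes of −0.62 and −0.69 (edgeR adjusted p = 0.0353 and 0.0278). The ranges of WT and mutants overlapped. Nupr1, a stress-induced chromatin protein, was 70.4 ± 5.68, 58.4 ± 4.32 and 52.9 ± 2.74 CPM, with log2 fold changes of −0.27 and −0.41 (edgeR adjusted p = 0.00757 and 3.39e-04). Atf3 had −0.38 and −0.11, and the secreted stress hormone Gdf15 −0.44 and −0.34, none of them called (edgeR adjusted p from 0.129 to 0.778). The mitochondrial relay genes Oma1 and Dele1 were not called either, with log2 fold changes from −0.14 to −0.076.

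Of 17 genes for amino acid and one-carbon synthesis and transport, Psph rose and Slc3a2 fell in FUN025/+, and Psph rose in FUN025/FUN025, or 11.8% and 5.88% of the list beside 13.7% and 14.0% of all genes called. Psph, the last enzyme of serine synthesis, stood at 18.8 ± 0.243 CPM in WT, 22.9 ± 1.44 in FUN025/+ and 23.4 ± 2.55 in FUN025/FUN025, with log2 fold changes of 0.29 and 0.31 (edgeR adjusted p = 0.0173 and 0.0125). Slc3a2, the heavy chain of amino acid exchangers, had −0.21 in FUN025/+ (edgeR adjusted p = 0.0372). Of 18 cytosolic aminoacyl-tRNA synthetases 2 fell in FUN025/+ and 3 in FUN025/FUN025, or 11.1% and 16.7% beside 6.61% and 7.02% of all genes called lower, and none rose. Cars had −0.20 and −0.25 (edgeR adjusted p = 0.0236 and 0.00993) and Eprs −0.16 and −0.14 (edgeR adjusted p = 0.0213 and 0.0374), and Wars had −0.18 in FUN025/FUN025 (edgeR adjusted p = 0.0307).

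Of 18 ER chaperones and folding enzymes 2 rose and 1 fell in FUN025/+, and 1 rose and 3 fell in FUN025/FUN025, together 16.7% and 22.2% beside 13.7% and 14.0% of all genes. Hyou1, the ER chaperone that exchanges nucleotide on BiP, was 99.6 ± 7.20 CPM in WT, 89.6 ± 5.55 in FUN025/+ and 82.8 ± 3.86 in FUN025/FUN025, and fell by 0.27 on the log2 scale in FUN025/FUN025 (edgeR adjusted p = 0.00509). Dnajb11, a co-chaperone of BiP, had −0.15 and −0.19 (edgeR adjusted p = 0.0487 and 0.0212), and Creld2 −0.33 in FUN025/FUN025 (edgeR adjusted p = 0.0320). In contrast, Ero1l, the oxidase of disulfide formation, rose by 0.32 and 0.25 (edgeR adjusted p = 0.00637 and 0.0286), and the lectin chaperone Canx by 0.17 in FUN025/+ (edgeR adjusted p = 0.0451). The other large chaperone, Hsp90b1, was not called, at −0.098 and −0.084.

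Of 15 genes of ER-associated degradation 1 rose and 1 fell in FUN025/+, and 2 rose and 2 fell in FUN025/FUN025, or 13.3% and 26.7% beside the same background. Syvn1, the ubiquitin ligase HRD1 and a target of XBP1, was 58.8 ± 4.95 CPM in WT, 46.6 ± 1.33 in FUN025/+ and 46.7 ± 3.89 in FUN025/FUN025, with log2 fold changes of −0.33 in both (edgeR adjusted p = 0.00134 and 0.00177). Vcp, the ATPase that extracts proteins from the membrane, had 0.17 in both (edgeR adjusted p = 0.0303 and 0.0344), and its cofactor Ufd1 had 0.14 in FUN025/FUN025 (edgeR adjusted p = 0.0431). Derl3, present at under 3 CPM, had −0.91 in FUN025/FUN025 (edgeR adjusted p = 0.0371).

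Of 14 translocon and signal peptide processing genes 2 fell in each genotype, or 14.3% beside 6.61% and 7.02% of all genes called lower, and none rose. Sec61g, the smallest subunit of the translocon, was 30.8 ± 1.90 CPM in WT, 23.0 ± 1.70 in FUN025/+ and 22.1 ± 1.34 in FUN025/FUN025, with log2 fold changes of −0.42 and −0.48 (edgeR adjusted p = 4.64e-04 and 1.70e-04). Sec11c, a signal peptidase subunit, had −0.28 and −0.20 (edgeR adjusted p = 0.00310 and 0.0326). Of 12 mitochondrial chaperones and proteases, the protease Yme1l1 rose by 0.19 and 0.18 (edgeR adjusted p = 0.00992 and 0.0191) and Dnaja3 had −0.16 in FUN025/+ (edgeR adjusted p = 0.0465), so 16.7% and 8.33% of the list were called beside 13.7% and 14.0% of all genes. With an offset for GC content and length, Yme1l1 had 0.055 and 0.048 and was not called.

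Many of these calls were lost when 1 library was left out. The calls of Ppp1r15a, Nupr1, Psph, Syvn1 and Sec61g in both comparisons, of Ero1l, Sec11c and Yme1l1 in FUN025/+, and of Eif2ak2, Cars, Creb3l1 and Hyou1 in FUN025/FUN025 held in all 15 fits with 1 library left out. Of these, Psph and Syvn1 in both comparisons, and Nupr1, Ero1l, Sec11c and Yme1l1 in FUN025/+, were lost with the muscle and photoreceptor covariates. Eif2ak2 and Cars in FUN025/FUN025 were lost there too. In FUN025/+, Eprs was lost without WT 4 (edgeR adjusted p = 0.0525) and Cars without WT 2 or WT 3 (adjusted p up to 0.0766). Vcp, Atf6, Cebpb, Slc3a2, Canx, Dnajb11 and Dnaja3 held in 11, 9, 9, 9, 5, 3 and 2 of the 15 fits. Their weakest fits, without WT 2 for Vcp and Slc3a2, without WT 3 for Dnajb11 and without WT 4 for the others, had edgeR adjusted p from 0.103 to 0.184.

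In FUN025/FUN025, Yme1l1 was lost without WT 2, WT 4 or FUN025/FUN025 2 (edgeR adjusted p up to 0.0687), and Dnajb11 without WT 3, WT 4 or FUN025/FUN025 2 (adjusted p up to 0.0873). Wars, Ero1l and Sec11c held in 10 of the 15 fits, Cebpb and Vcp in 9, Creld2 and Derl3 in 8, Ufd1 in 7 and Eprs in 6. Their weakest fits, most of them without WT 4, had edgeR adjusted p from 0.0888 to 0.135.

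Over all 9 lists, 117 of 118 genes were tested beside the members. Their median was −0.016 (FUN025/+) and −0.049 (FUN025/FUN025) on the log2 scale, nearer to that of all genes than to that of the members. In FUN025/+, 6 were called higher and 11 lower, together 14.5% of them, and in FUN025/FUN025, 6 higher and 14 lower, or 17.1%. Of all genes, 13.7% and 14.0% were called. Those called lower made up 9.40% and 12.0% of the listed genes, beside 6.61% and 7.02% of all genes, and 10 and 16 listed genes (8.55% and 13.7%) lay below WT without overlap, beside 5.18% and 7.50% of all genes. None was called between the mutant genotypes by edgeR's quasi-likelihood test.

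**Figure D3:**
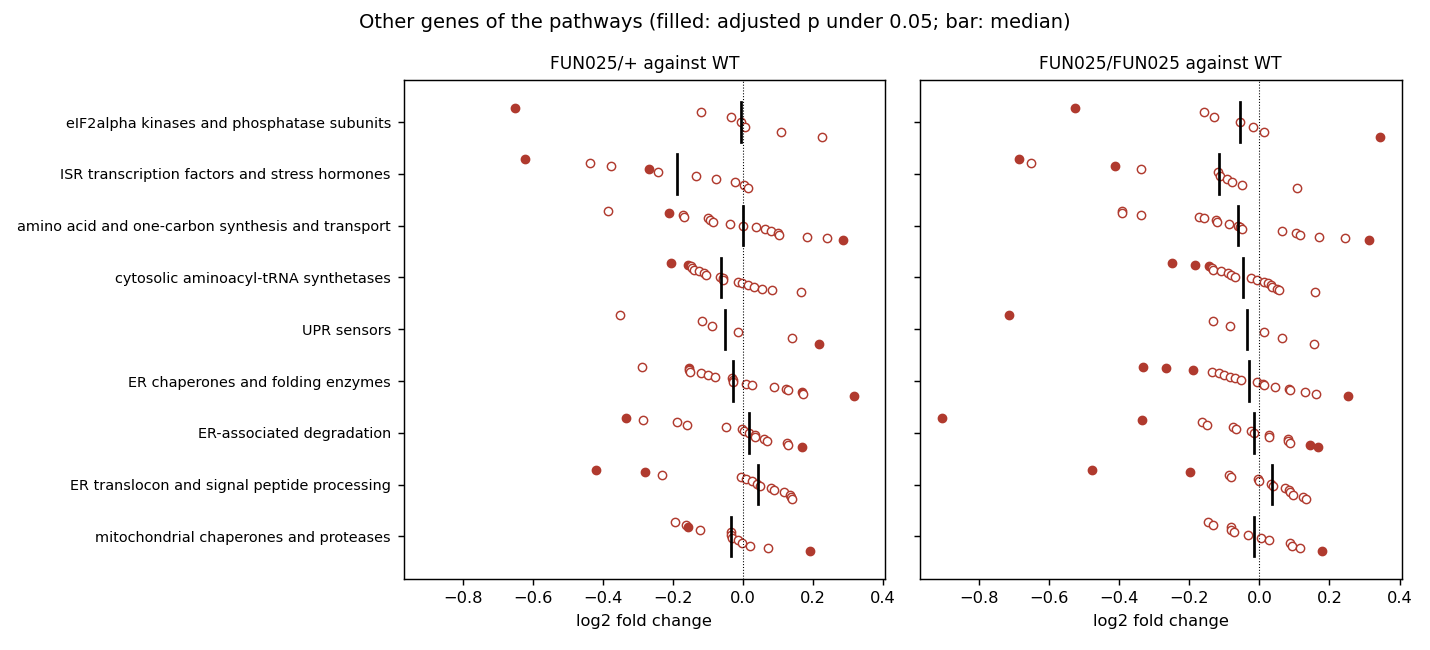
Log2 fold change against WT of every tested gene in 9 lists of related genes (1 point per gene, black bar at the list median, filled points called), for FUN025/+ at left and FUN025/FUN025 at right. Most points lie within 0.2 of 0, and the filled points at the far left include Ppp1r15a, Cebpb and Sec61g in both panels.

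The variation of the 9 genes within genotypes was also described. Deviations of log2 CPM from the genotype mean were correlated over the 15 libraries, which share their depth and scaling, and over the 36 pairs of members r ran from −0.49 to 0.64 with a median of −0.0057. The highest value was that of Hspa5 and Xbp1 at 0.64. Among 17586 genes, Hspa5 was most like Hyou1 (r = 0.93), followed by Gm43445 (0.87). Atf4 was most like Mmp24 (0.92) and Psmd4 (0.88), Atf5 like Csf3r (0.91) and Mum1 (0.90), and Ddit3 like Gm44421 (0.95) and mt-Tl1 (0.93). Xbp1 was most like Camp (0.87) and A330015K06Rik (0.83), and Trib3 like Sgf29 (0.88) and Tubd1 (0.85). Asns was most like D830025C05Rik (0.90) and Cog8 (0.85), Chac1 like Gm10814 (0.92) and Cldn8 (0.89), and Sesn2 like Pecr (0.89) and Socs3 (0.89). These are the highest of all genes compared and are given as a description only.

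The muscle level of FUN025/+ 5, FUN025/+ 6 and FUN025/FUN025 3, at 7111, 6306 and 5333 CPM, was within the WT range, although FUN025/FUN025 3 exceeded only WT 2. In these, Atf4 was 101.1, 108 and 106 CPM and Hspa5 338, 366 and 333 CPM. The photoreceptor level of FUN025/+ 1, FUN025/+ 4, FUN025/FUN025 2 and FUN025/FUN025 3 was within the WT range, and there Atf4 was 91.3, 97.2, 98.1 and 106 CPM. With the mean log2 CPM of the muscle and photoreceptor markers as covariates, Hspa5 had log2 fold changes of −0.77 and −0.79 (edgeR adjusted p = 0.00154 and 2.28e-04). Atf5 had −0.60 in FUN025/FUN025 there (edgeR adjusted p = 0.0172). In the same fit Atf4 had −0.31 and −0.34, against −0.39 and −0.40 without the covariates, and was no longer called (edgeR adjusted p = 0.159 and 0.0634), and Ddit3 turned in sign. The part of muscle, photoreceptor and endothelial tissue in these differences was not tested. With all libraries thinned to 10903183 counts, Hspa5 and Atf4 were called in both comparisons and Atf5 in FUN025/FUN025, and Ddit3 in FUN025/+ had −0.30 (edgeR adjusted p = 0.0503).

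**Figure D4:**
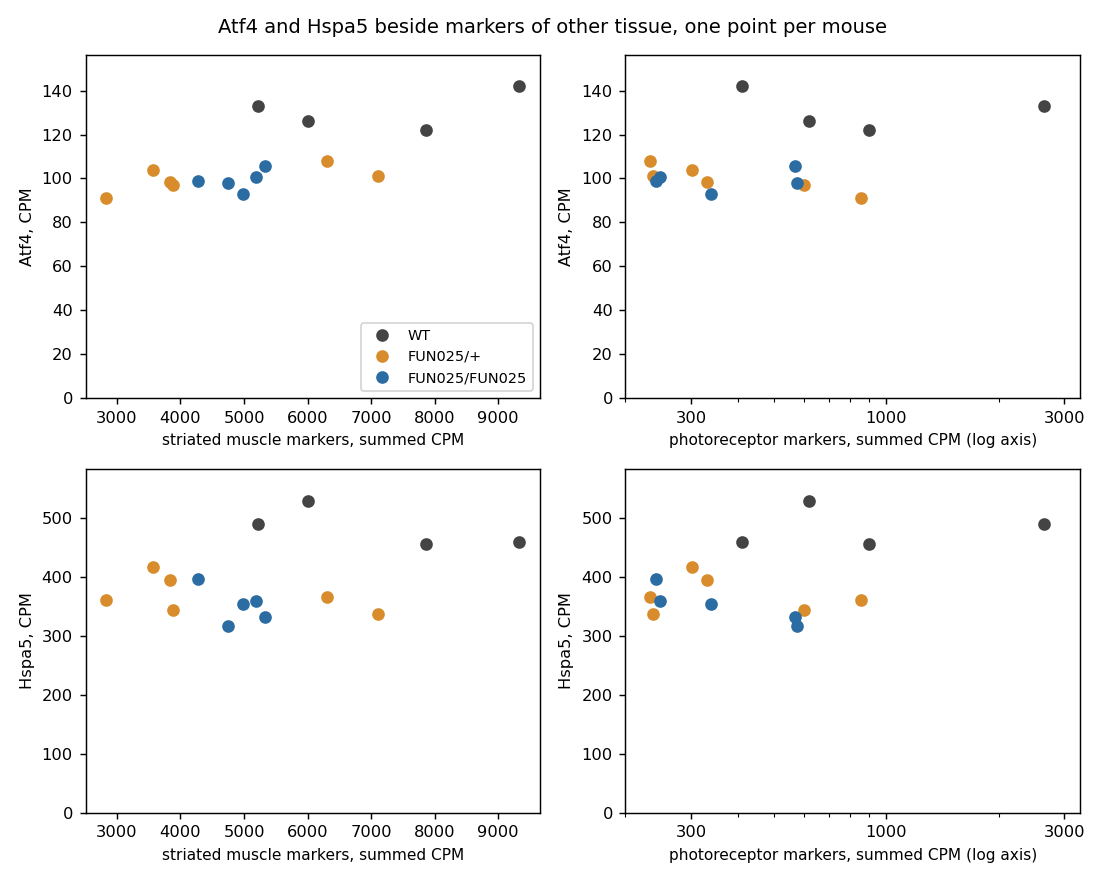
Atf4 (top) and Hspa5 (bottom) in CPM against the summed CPM of striated muscle markers (left, linear axis) and photoreceptor markers (right, log axis), with 1 point per mouse coloured by genotype. All mutant points lie below all WT points for both genes, and the marker levels overlap only in part.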

How the data were processed

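Per the labels, poly(A)-selected paired-end libraries were made from total RNA of 15 mouse eyecup samples. The authors deposited whole-number read counts per Ensembl gene, without normalization. The submitters' processing notes name FastQC 0.11.8, Trimmomatic 0.39, HISAT2 2.1.0, SAMtools, featureCounts 2.0.0 and GRCm38. The annotation version and strand setting are not given in the sources used here. Symbols, positions and exon lengths came from GENCODE M21 (55240 of 55421 genes found). A variance filter set at the lowest 15% of genes was applied, and filterByExpr took out genes of low count, leaving 18979. Without the variance filter, 18979 genes were tested as well, with 2600, 2666 and 99 called as before. That alternative therefore repeats the main fit and is no separate check. Counts were scaled by TMM and fitted with genotype in edgeR 4.0.16 (R 4.3.3), robust quasi-likelihood test, all libraries in 1 fit. Standard errors were the fold change over the root of the F value. CPM are on the TMM scale, and TPM were computed from counts and exon length. Named genes were the 9 members, Tmem135, 6 sensors, the 2 largest called rises and falls of each list and comparison, and the 2 genes most like each member in deviation from genotype means. Atf3, Gdf15, Oma1, Dele1 and Hsp90b1 were added after their values were seen. The members and all lists were chosen with earlier results of these data known. Alternatives used DESeq2 1.42.0, limma 3.58.1 and other scalings, filters, covariates, blocks and left-out libraries. The fitting steps were tested on simulated counts. Marker lists of 8 tissues were summed, among them plasma cell (48.3 to 121 CPM over all libraries). No pair of libraries in a group agreed within sampling noise.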

Additional observations from a re-analysis of the deposited data

Results flagged for a closer look

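In the groups of 4 to 6 libraries, a gap between the highest or lowest library and the rest was tested by Dixon's ratio for 38 genes in 3 genotypes, and 11 of 114 groups passed its 95% critical value, where chance passes about 1 in 20. Among the 9 members, Trib3 was high in FUN025/+ 5 at 4.70 CPM and Asns was high in FUN025/+ 1 at 4.41 CPM. FUN025/FUN025 4 stood apart for 3 kinases of eIF2alpha, with Eif2ak1 lowest at 53.2 CPM, Eif2ak2 highest at 49.9 CPM and Eif2ak4 highest at 36.2 CPM. Ppp1r15a was lowest in FUN025/FUN025 2 at 22.9 CPM, and Psph was lowest in FUN025/+ 4 at 20.2 CPM. Derl3 had such a library in every genotype, the lowest in WT 3 at 1.45 CPM and the highest in FUN025/+ 2 at 2.62 CPM and in FUN025/FUN025 3 at 1.61 CPM. Dnaja3 was highest in FUN025/+ 6 at 48.3 CPM.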

How the results depend on the processing

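Of the member and pathway calls, Hspa5, Ppp1r15a and Sec61g were called under all settings and left-out libraries run in both comparisons with WT, and Nupr1, Creb3l1 and Hyou1 in FUN025/FUN025. Leaving out 1 library in turn gave 2 to 5 members in either comparison (5 in FUN025/+ without FUN025/+ 2 and 5 in FUN025/FUN025 without WT 1), 11 to 23 pathway genes in FUN025/+ (11 without WT 2, WT 3, WT 4 or FUN025/+ 5) and 10 to 22 in FUN025/FUN025 (10 without WT 4, 11 without WT 2 or FUN025/FUN025 2). Over all genes these fits called 1446 to 2722 and 1528 to 2701, both lowest without WT 4. With muscle and photoreceptor covariates, 1 member was called in FUN025/+, and 4 and 7 pathway genes were called in the 2 comparisons, in a fit that called 241 and 640 of all genes against 2600 and 2666 without the covariates. With the offset for GC content and length, 1860 and 2019 of all genes were called. In FUN025/+ the offset ended the calls of Atf6, Cebpb, Slc3a2, Cars, Canx, Dnajb11, Dnaja3 and Yme1l1. In FUN025/FUN025 it ended those of Atf5, Cebpb, Wars, Ero1l, Derl3, Ufd1 and Yme1l1. With the Xist level as a covariate, 5 members were called in FUN025/+. Counts between the mutant genotypes stayed at 0. The causes were not tested. At 17 to 151 counts per library, Asns, Chac1 and Trib3 had confidence intervals that held both 0 and the fold changes of Atf4.

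Replicate numbers were not treated as pairs, since the libraries came from different mice. Deviations of same-numbered libraries correlated between −0.38 and 0.13. These were not compared with differently numbered libraries, so whether a number stands for a shared batch was not tested. A block for the replicate number left 12 pathway calls in FUN025/FUN025, Atf5 was lost there (adjusted p = 0.0973), and in FUN025/+ Ddit3 was lost (adjusted p = 0.0695) and Chac1 gained (−0.85, adjusted p = 0.0451). Calls over all genes under the block were 2010, 2137 and 80, the last against 99 without it.

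In the alternatives run, directions turned only in values that were not called, except Ddit3 in FUN025/+. Under the covariates these were Ddit3 (0.041 and 0.076), Eif2ak4 in FUN025/FUN025 (0.068) and Xbp1 between mutants (0.017). With an offset for GC content and length, chosen after seeing the data, Sesn2 and Eif2ak3 in FUN025/+ had 0.10 and 0.017, and among protein-coding genes alone, also chosen then, Eif2ak4 in FUN025/FUN025 had 0.0063. Between mutants, the block gave 0.014 for Atf4 and −0.0076 for Asns, and Xbp1 had 0.0012 by total counts, 0.0018 with no low-count filter and 0.0031 with Xist. With single libraries left out, the ranges that crossed 0 were −0.40 to 0.019 and −0.31 to 0.091 for Asns against WT, −0.063 to 0.013 for Sesn2 in FUN025/+, −0.063 to 0.0036 for Eif2ak3 in FUN025/+ and −0.069 to 0.0093 for Eif2ak4 in FUN025/FUN025, and between mutants −0.099 to 0.27 for Asns, −0.035 to 0.012 for Atf4, −0.024 to 0.031 for Xbp1 and −0.10 to 0.059 for Trib3.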
